A study of Mus musculus with 9 samples.

Results

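Microglia that carried few inflammatory transcripts were described in single-cell RNA-seq libraries of tumor-bearing and tumor-free mouse brain. A barcode was a member when it had at least 1 unique molecular identifier (UMI, a counted transcript) in 3 or more of the 7 macrophage genes C1qa, C1qb, C1qc, Csf1r, Fcer1g, Tyrobp and Ctss. It also needed a UMI in 2 or more of the 5 microglial genes P2ry12, Tmem119, Siglech, Gpr34 and Sall1, and in at most 1 of the 6 inflammatory genes Ccl2, Ccl3, Ccl4, Ccl12, Tnf and Il1b. This rule found 2850 members among 64617 kept barcodes, 728 of 29135 in the controls and 2122 of 35482 in the tumors. The control group was 4 brains of NestinCreERT2;TdT mice, which carry the Cre allele and a TdTomato reporter without the fusion gene. The tumor group was 5 EP ZFTA-RELA tumors of NestinCreERT2;Fus1 mice, a supratentorial ependymoma model in which Cre, driven from Nestin in embryonic radial glia, switches on a conditional ZFTA-RELA fusion. All mice were 6-8 weeks old, and all suspensions had been enzymatically dissociated, spun in 40% Percoll and sorted with DAPI and anti-Ter119. Because the rule counted transcripts of 18 genes, the number of members and the levels of those genes are given as a description. Tests reported for named genes and gene lists are of other genes.

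Microglia are the resident macrophages of the brain parenchyma, seeded from the yolk sac and kept alive by CSF1R signaling. In the healthy brain they hold a homeostatic program, with the purinergic receptor P2ry12, the fractalkine receptor Cx3cr1 and Tmem119 among its best known genes, which depends on TGF-β and on the transcription factors Sall1 and PU.1 (Spi1). In damaged, aging or tumor-bearing brain that program is commonly lowered while genes of lysosomes, lipid handling and antigen presentation rise. Inflammatory microglia add chemokines and cytokines such as Ccl3, Ccl4 and Tnf, the class that the present rule left out.

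The 9 libraries held 14967680 to 178086164 UMIs, and the UMIs of members summed to 397467 to 794898 per control mouse and 512106 to 2719924 per tumor mouse. Median UMIs per member were 1919.5, 3738, 3260 and 3838 in control mice 1 to 4 and 2285, 2833, 1224, 4135.5 and 2375.5 in tumor mice 1 to 5. Tumor 3 was the shallowest, with 216 of its 575 members under 1000 UMIs. Median mitochondrial shares were 8.17-8.86% in controls, 8.79%, 8.23% and 6.19% in tumors 1 to 3, and 2.48% and 3.51% in tumors 4 and 5. Summed counts of all replicate pairs differed by more than the random drawing of UMIs gives. That chi-square measure ignores the spread between cells. Member barcodes shared between libraries amounted to 1 barcode in 1 of the 28 library pairs that could be compared. Control and tumor libraries differed in the estimated part of free RNA, the transcripts of broken cells that enter every droplet. Its profile was read from the barcodes with the fewest UMIs of each library, called low-UMI barcodes here. These can hold small cells too, and their endothelial marker UMIs per 1e6 were 62-76 in controls and 313-1317 in tumors. What this did to the share of free RNA estimated next was not tested. An estimate from neuronal, astrocytic, oligodendrocytic and endothelial markers put free RNA at 86.1-97.5% of member UMIs in controls and 23.1-42.9% in tumors. The estimate was rough, since single marker lists gave 59.0-153% in controls, values above 100% being impossible as shares, and 11-78.0% in tumors. This difference moves with every comparison of tumor and control, so values on a second scale restricted to microglial genes, explained below, are given wherever it changed a call.

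Members made up 2.39%, 2.68%, 2.46% and 2.48% of kept barcodes in the 4 controls. In the 5 tumors they made up 7.24%, 7.54%, 8.58%, 5.20% and 3.72%, so the lowest tumor lay above the highest control. This separation was lost when the rule was made stricter. With 3 or more of the 5 microglial genes, tumor 5 was at 2.19% (219 of 9993) and control 2 at 2.19% (163 of 7428), and with none of the 6 inflammatory genes tumor 4 was at 2.26% and control 2 at 2.30%. Among all barcodes that passed the macrophage and microglial parts of the rule, those with few inflammatory genes were 99.5%, 99.0%, 98.8% and 96.7% in controls and 80.5%, 65.7%, 82.6%, 44.0% and 72.1% in tumors. The remainder, with 2 or more inflammatory genes, were 1, 2, 2 and 6 barcodes in the controls and 50, 234, 121, 663 and 144 in the tumors. Deeper cells show more genes, and the inflammatory microglia of tumors had median UMIs of 3392 to 8440. With every cell thinned to 1000 UMIs before the rule was applied, the shares with few inflammatory genes were 100%, 100%, 100% and 99.1% in controls and 93.3%, 80.6%, 87.2%, 62.5% and 87.1% in tumors. Tumor 4 had the smallest share of microglia with few inflammatory transcripts at either depth. In a share of kept barcodes, more microglia and fewer other cells cannot be told apart. The cut at the 10000 barcodes with most UMIs also took unlike parts of the libraries. Controls held 75222 to 86516 deposited barcodes and tumors 9001 to 26341, so control shares came from a smaller, deeper part. What this did to the shares was not tested.

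**Figure D1:**
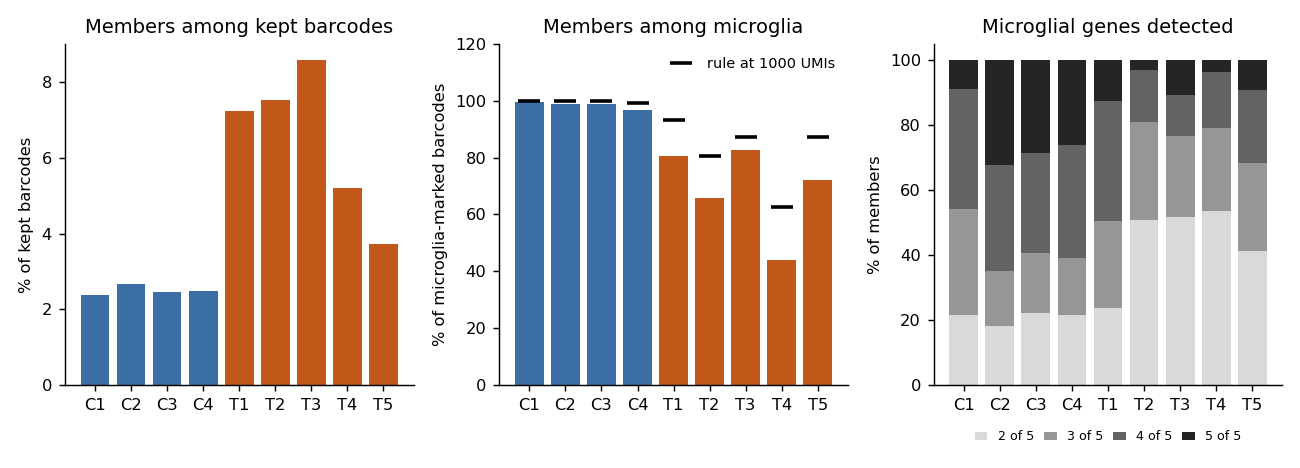
Members in each control (C1 to C4, blue bars) and tumor (T1 to T5, orange bars) library, as a percentage of kept barcodes (left) and of microglia-marked barcodes (middle, with black dashes for the share after thinning every cell to 1000 UMIs), and members split by how many of the 5 microglial genes of the rule they held (right, stacked grey bars, % of members). Tumor libraries sit between 3.72% and 8.58% of kept barcodes and controls between 2.39% and 2.68%, whereas the share of microglia with few inflammatory genes lies between 44.0% and 82.6% in tumors and above 96% in controls.

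The limits of the rule were crossed by small steps. Members with exactly 1 of the 6 inflammatory genes numbered 18, 28, 29 and 17 in controls and 67, 202, 117, 294 and 115 in tumors, and microglia just outside, with 2 of the 6, numbered 1, 1, 1 and 6 and then 23, 111, 57, 215 and 67. At the microglial limit, members with exactly 2 of the 5 genes were 21.6%, 18.1%, 22.2% and 21.5% of control members and 23.8%, 50.8%, 51.8%, 53.5% and 41.1% of tumor members. Most of the members of tumors 2, 3 and 4 therefore entered at the lowest number of microglial genes allowed. Members with 4 or 5 of the 5 genes were 45.9-64.8% in controls, 49.5% in tumor 1 and 18.9-31.7% in tumors 2 to 5. Barcodes just outside, with 1 of the 5 genes and otherwise like members, numbered 46 to 160 per control and 97 to 686 per tumor.

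Levels of rule genes are given in counts per 1e6 member UMIs (CPM) as a description only, since a barcode was chosen by having them. P2ry12, the ADP receptor that steers microglial processes to injury, was at 906, 1030, 1016 and 937 CPM in controls and at 836, 291, 1125, 173 and 533 CPM in tumors. Tumors 2 and 4 were lowest and tumor 3 lay above every control. Tmem119, a membrane protein used as a microglial marker, was at 443, 382, 506 and 370 CPM in controls and 609, 357, 447, 346 and 493 CPM in tumors, so the groups overlapped. Siglech and Gpr34, receptors for sialic acid and lysophosphatidylserine, were also highest among tumors in tumor 3 and lowest in tumors 2 and 4, which stood at 360 and 201 CPM for Siglech and at 183 and 185 CPM for Gpr34. Csf1r ran from 1140 to 1286 CPM in controls and from 645 to 2133 CPM in tumors. C1qa, the complement C1q chain that microglia supply to the brain, was at 2073, 2381, 2427 and 2356 CPM in controls and at 9457, 7949, 8664, 6736 and 6703 CPM in tumors. The presence of these 6 genes says nothing about the label, because the rule asked for them.

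The rule did not use 5 other microglial genes, Cx3cr1, P2ry13, Selplg, Olfml3 and Fcrls. All 5 were at least 3 times as high in members as in low-UMI barcodes in each of the 9 libraries. Barcodes with 3 or more of the 7 macrophage genes had been left out of the low-UMI barcodes. This excess therefore cannot check the label, nor does it separate microglia from other macrophages. The 5 genes were then tested between tumor and control on UMIs summed per mouse. CPM are not adjusted, whereas log2 differences of this fit carry scaling factors (TMM) of 1.16-1.22 in controls and 0.79-0.94 in tumors. These factors raise a log2 difference above what the CPM values alone give. Cx3cr1, the fractalkine receptor, was at 2116, 2003, 2230 and 1971 CPM in controls and 1781, 593, 1576, 401 and 975 CPM in tumors. Every tumor lay below every control, and tumors 2 and 4 were lowest, but the difference of -0.56 ± 0.35 (log2, SE, edgeR adjusted p = 0.22, n = 4 and 5) did not pass the threshold. P2ry13, an ADP receptor related to P2ry12, was at 257, 209, 262 and 253 CPM in controls and 221, 62.9, 236, 52.6 and 169 CPM in tumors and differed by -0.34 ± 0.38 (adjusted p = 0.51). Selplg, the ligand of P-selectin, had means of 613 CPM in controls and 490 CPM in tumors and, after scaling, differed by 0.08 ± 0.35 (adjusted p = 0.87). Olfml3, a secreted matrix protein, rose by 0.94 ± 0.28 (adjusted p = 0.017). Fcrls, a microglial Fc receptor-like scavenger receptor, was at 430, 477, 365 and 357 CPM in controls and 508, 1217, 1906, 689 and 825 CPM in tumors. It rose by 1.80 ± 0.37 (adjusted p = 0.0023), with no overlap between groups.

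These differences depended on the denominator. Restricting counts and scaling to the 340 genes that were at least 3 times as high in members as in low-UMI barcodes of all 9 libraries lowered the part of free RNA in the total. It did not remove it, and because free RNA was estimated as a larger share of control than of tumor members, what was left can differ between the groups. This microglial scale was added after the data were seen, and its genes were chosen on values of both groups. Rule genes such as C1qa and Csf1r are among the 340, so the scale rests in part on genes by which members were chosen. These genes supplied 4.91-5.47% of member UMIs in controls and 7.46-11.6% in tumors, and the median shift between the 2 scales, over 336 genes tested on both, was 0.87 (log2). On the microglial scale Cx3cr1 differed by -1.51 ± 0.24 (adjusted p = 5.8e-04), P2ry13 by -1.28 ± 0.30 (adjusted p = 0.0057) and Selplg by -0.88 ± 0.24 (adjusted p = 0.013). Olfml3 (0.05 ± 0.21) no longer passed, and Fcrls remained higher at 0.90 ± 0.31 (adjusted p = 0.031). The call of Fcrls was lost, with its direction kept, when the estimated free RNA was subtracted from each sum. Without tumors 2 and 4 on the whole-transcriptome scale, Cx3cr1 differed by -0.15 and P2ry13 by 0.15.

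**Figure D2:**
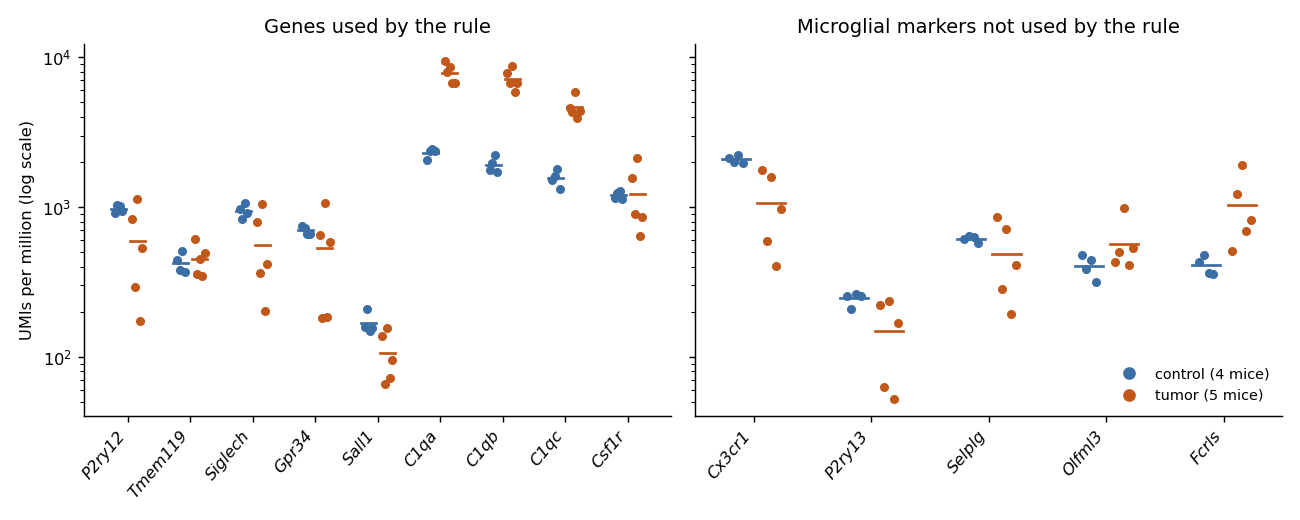
Levels of rule and non-rule microglial genes in the members of each mouse, in CPM on a log axis, with controls in blue, tumors in orange and horizontal lines at group means. Cx3cr1 falls to 593 and 401 CPM in tumors 2 and 4 against 1971 to 2230 CPM in controls, while Fcrls and C1qa stand higher in all tumors than in any control.

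Transcripts of other cell types were found in the members of every mouse. The 10 neuronal markers summed to 7113-8592 CPM in control members and 7251-7816 CPM in the low-UMI barcodes of the same libraries, and to 213-1549 CPM in tumor members against 611-6303 CPM in their low-UMI barcodes. Snap25, a synaptic vesicle fusion protein, was at 969 to 1155 CPM in control members and 2.94 to 275 CPM in tumor members. The 10 astrocyte markers summed to 2088-2221 CPM in control and 1196-2787 CPM in tumor members, and the 10 endothelial markers to 45-102 and 123-244 CPM. The 10 oligodendrocyte markers reached 2745-3410 CPM in control members and 421-4905 CPM in tumor members, below the low-UMI barcodes in every library. Erythroid markers, hemoglobin among them, took 30656 CPM in the members of tumor 3 and 19298 CPM in its low-UMI barcodes, and 3071 against 1145 CPM in control 4, but lay below the low-UMI level in the other 7 libraries. Markers of neural progenitors and of the tumor cells, with Nes, Igf2 and H19, took 367-435 CPM in control members and 434, 2289, 683, 5255 and 1899 CPM in tumor members, which was below the low-UMI level in every tumor. The 10 markers of border-associated macrophages stood above the low-UMI level, at 37-201 CPM in control members and 314, 909, 284, 539 and 104 CPM in tumor members, against 8-59 CPM in low-UMI barcodes of tumors. Of the 5 of these genes that could be tested, all 5 rose, as did 7 of 11 neural progenitor, 5 of 10 astrocyte and 3 of 5 endothelial markers in the same fit. Of all 9524 genes tested there, 22.9% were higher. With free RNA subtracted 3 of the 5 genes of border-associated macrophages rose, and without tumors 2 and 4 only 1 of the 3 that could be tested. Among them, Ms4a7 was at 44.9, 317, 11.9, 214 and 3.52 CPM in tumors and 0 to 16.9 CPM in controls. Monocyte markers summed to 34-48 CPM in control and 45-304 CPM in tumor members, and neutrophil markers to 45-82 and 75-186 CPM. The lymphocyte genes Il2rb, Ms4a1 and Nkg7 and the neutrophil granule genes Ltf and Ngp had no UMI in any member. What part border-associated macrophage transcripts had in the differences below was not tested.

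**Figure D3:**
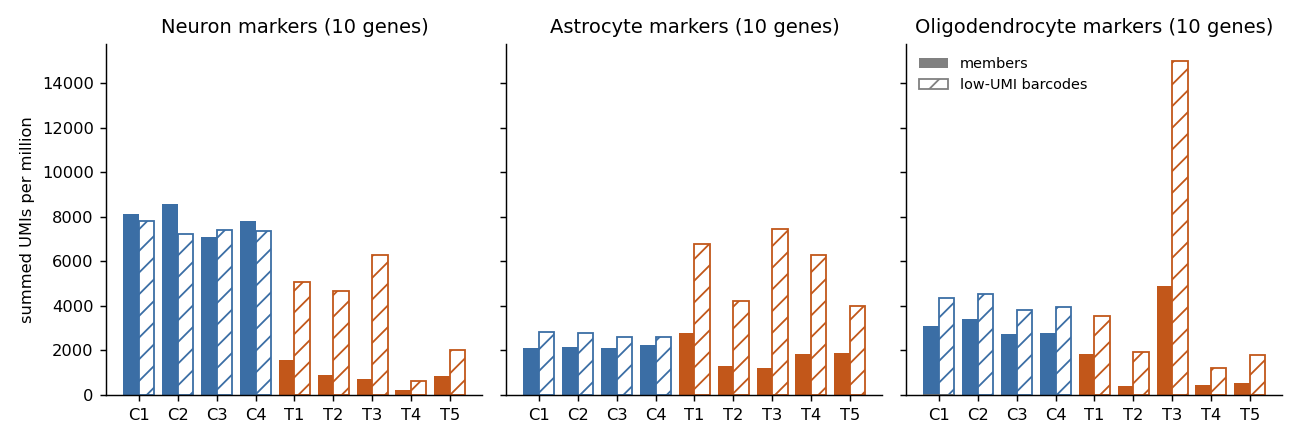
Summed CPM of the 10 neuronal, 10 astrocyte and 10 oligodendrocyte markers in members (filled bars) and in low-UMI barcodes (hatched bars) of each control (C1 to C4, blue) and tumor (T1 to T5, orange) library, on a linear axis from 0. Neuronal markers in control members (7113-8592 CPM) lie near the level of their low-UMI barcodes (7251-7816 CPM), while in tumor members (213-1549 CPM) they lie below theirs.

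Across 9524 genes tested, 2177 were higher (22.9%) and 1988 lower (20.9%) in tumor members by edgeR at an adjusted p below 0.05. Of the 340 genes of the microglial scale, 81 were higher (23.8%) and 63 lower (18.5%). With the estimated free RNA subtracted from each sum, 1651 were higher and 856 lower of 4986. The median of all genes in the first fit was 0.09 (log2). Rule genes that passed the filters were kept in these fits and counts. These shares of all genes are the background for the list counts below. Sums per mouse cannot tell apart a change in every member from a change in the mixture of members.

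Of the 8 higher genes chosen by smallest p, 3 encode lysosomal proteins. Ctsz, a carboxypeptidase of the cathepsin family, was at 385, 377, 455 and 439 CPM in controls and 1373, 1586, 1443, 1529 and 1834 CPM in tumors, a rise of 2.34 ± 0.19 (edgeR adjusted p = 3.3e-05). Grn, the lysosomal protein progranulin, was at 299 to 345 CPM in controls and 929 to 1029 CPM in tumors and rose by 2.04 ± 0.17. Every tumor lay above every control for both. Ctsh, another cathepsin, rose by 2.08 ± 0.19, and Cyba, the p22phox subunit of the NADPH oxidase, by 2.44 ± 0.22. Ucp2, a mitochondrial carrier, was at 67.9, 76.7, 78.7 and 74.6 CPM in controls and 639, 645, 488, 267 and 440 CPM in tumors and rose by 3.17 ± 0.28. The others were Cd300c2, a paired immune receptor (2.30 ± 0.20), H2-DMa, which loads peptides onto MHC class II (2.46 ± 0.24), and Pold4, a DNA polymerase delta subunit (2.10 ± 0.18). Of these 8 genes, 7 could be tested on the microglial scale, where all 7 were higher by 1.22 to 2.29. The genes were picked for rising and for at least 2 times the low-UMI level in every tumor. As the 2 scales use the same counts with a median shift of 0.87 (log2), this result was largely set by the choice. Pold4 was not among its genes.

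The 8 lower genes chosen by the same rule included 3 non-coding RNAs. Nav3, a microtubule-guiding protein often listed with homeostatic microglia, was at 294, 303, 294 and 297 CPM in controls and 58.6, 48, 67.2, 15.4 and 50.2 CPM in tumors, lower by -2.23 ± 0.32 (adjusted p = 2.9e-04). Control members held more than 4 times the level of their low-UMI barcodes (54.6-65.6 CPM), whereas tumor members lay near theirs. At least 2 times the low-UMI level in every control was a condition for all genes of this set. An excess in controls was thus imposed by the choice. R3hdm1 (-1.33 ± 0.15) and Pnisr, a nuclear speckle protein (-1.32 ± 0.17), were lower in all tumors. The non-coding RNAs Kcnq1ot1 (-0.86 ± 0.16), Ftx (-1.80 ± 0.34) and Meg3 (-2.93 ± 0.41) were also lower. Meg3, abundant in neurons, was at 3306-4611 CPM in control members and 1025-1312 CPM in their low-UMI barcodes. The nuclear RNA Malat1, named after its values were seen, took 37080-39394 CPM in controls and 13367-19260 CPM in tumors (-0.86 ± 0.18, adjusted p = 0.0023). Sgcz and Rxfp1, the remaining genes of this set, stood at 12.6-30.2 CPM in controls and 0-3.91 CPM in tumors. None of these genes belonged to the microglial scale.

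Of 30 homeostatic genes outside the rule, 13 rose, 1 (Nav3) fell and 16 did not pass, with a median of 0.55. Lgmn, the lysosomal protease legumain, was at 677-826 CPM in controls and 1293-1911 CPM in tumors (1.54 ± 0.19), and Trem2, the lipid-sensing receptor of phagocytic microglia, at 533-787 and 1176-1617 CPM (1.47 ± 0.20). Both lay apart in the 2 groups, but with free RNA subtracted neither passed (0.54 and 0.43, adjusted p = 0.10 and 0.22). Ltc4s, leukotriene C4 synthase, rose by 1.80 ± 0.25 and the tetraspanin Cd81 by 1.39 ± 0.19. On the microglial scale 21 of the 30 could be tested, 5 were higher (Fcrls, Ltc4s, Crybb1, Lgmn and Trem2) and 9 lower, with a median of -0.54. Of all 340 genes there, 23.8% were higher and 18.5% lower. With free RNA subtracted 2 of the 30 were higher and 6 lower, with a median of -0.42. Of all 4986 genes in that fit, 1651 were higher and 856 lower. The 9 lower on the microglial scale were Cx3cr1, Selplg, P2ry13, Tgfbr1, Mertk, Golm1, Upk1b, Vsir and Slco2b1, which include a TGF-β receptor and the engulfment receptor Mertk.

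The transcription factor list had 8 of 19 genes higher and none lower at an adjusted p below 0.05. Of its 5 genes on the microglial scale none was higher and Maf was lower (-1.02, adjusted p = 0.017). With free RNA subtracted 3 of 17 were higher and 3 lower, with a median of -0.29, beside 1651 and 856 of 4986 of all genes. Cebpb, a factor of myeloid activation, was at 42.8, 57.9, 52.5 and 43.6 CPM in controls and 264, 746, 105, 569 and 292 CPM in tumors (3.48 ± 0.54). Its low-UMI level reached 396 and 389 CPM in tumors 2 and 4. Klf2 was at 6.29-15 CPM in controls and 44.8-310 CPM in tumors (4.11 ± 0.65). Cebpa rose by 1.80 ± 0.30, a call that was lost with free RNA subtracted. Spi1, which encodes PU.1, was at 121, 120, 150 and 142 CPM in controls and 268, 215, 301, 207 and 189 CPM in tumors (1.26 ± 0.19), but its 0.39 ± 0.17 on the microglial scale did not pass (adjusted p = 0.089). In the TGF-β list 3 of 13 genes rose (22.9% of all genes did), Tgif1 (1.61 ± 0.41), the ligand Tgfb1 (0.91 ± 0.24) and Nrros, which anchors latent TGF-β1 on microglia (1.26 ± 0.34). Smad3, a TGF-β signal transducer, differed by 0.43 ± 0.23 (adjusted p = 0.16). On the microglial scale Tgfb1 was at 0.02 and the receptors Tgfbr1 (-0.88) and Tgfbr2 (-0.58) were lower. With free RNA subtracted none of 12 was higher and 5 were lower, with a median of -0.68.

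Among receptors and signaling proteins for colony-stimulating factors, 7 of 9 rose (22.9% of all genes did). Csf2ra, the GM-CSF receptor alpha chain, was at 32.7, 37.7, 31.9 and 32.4 CPM in controls and 76.2, 106, 59.7, 123 and 59 CPM in tumors (1.79 ± 0.29). The shared beta chain Csf2rb rose by 1.46 ± 0.44 and Plcg2, a phospholipase downstream of Csf1r and Trem2, by 0.79 ± 0.24. Csf1, the ligand itself, ran from 9.85 to 25.2 CPM in controls and 17.6 to 59.9 CPM in tumors, near its low-UMI level in tumors. The 4 of these genes on the microglial scale were at 0.60 (Csf2rb, adjusted p = 0.27), 0.07 (Csf3r), -0.0146 (Plcg2) and -0.22 (Inpp5d). With free RNA subtracted 2 of 8 were higher, beside 1651 of 4986 of all genes. In the sensome, the surface genes by which microglia sense their surroundings, 15 of 27 rose and none fell. Slc11a1, an ion transporter of phagosomes, rose by 1.91 ± 0.27, the inhibitory Fc receptor Fcgr2b by 1.57 ± 0.24, and the integrins Itgb2 and Itgb5 by 1.30 ± 0.19 and 1.21 ± 0.19. On the microglial scale the integrins were at 0.46 and 0.35 and neither passed (adjusted p = 0.095 for both). Of 22 on that scale 3 were higher, Slc11a1, Fcgr2b and Fcgr3, and 3 lower, Adora3, Lair1 and Itgam. After subtraction of free RNA 3 of 27 were higher and 4 lower, beside 1651 and 856 of 4986 of all genes.

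Genes of disease-associated microglia rose almost throughout, in 18 of 20 tested with a median of 2.06. Cd52, a small surface glycoprotein, was at 121, 86.8, 80.6 and 76 CPM in controls and 463, 779, 388, 943 and 842 CPM in tumors (3.37 ± 0.33), and at 2.63 ± 0.41 on the microglial scale. Ctsd, the aspartyl cathepsin, was at 1346-1688 CPM in controls and 4206-6340 CPM in tumors (2.21 ± 0.22), and Ctsb rose by 1.91 ± 0.24. Fabp5 and Ank did not pass. Of 5 genes on the microglial scale 4 were higher, and with free RNA subtracted 14 of 17 were. Lysosomal and lipid genes rose in 16 of 20, with Nceh1, a cholesteryl ester hydrolase, the 1 that fell. Npc2, which exports cholesterol from lysosomes, was at 244-284 CPM in controls and 718-944 CPM in tumors (2.05 ± 0.20). Plin2, the coat protein of lipid droplets, was at 3.75-12.7 CPM in controls and 44.8-102 CPM in tumors (3.41 ± 0.37). Of 7 lysosomal genes on the microglial scale 6 were higher and none lower, and with free RNA subtracted 9 of 17 were higher and 1 lower.

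Several disease-associated genes, named after their values were seen, differed widely between tumors. Apoe, the lipid carrier of brain, was at 1648, 1931, 3708 and 1992 CPM in controls and 9436, 41412, 5895, 57108 and 14278 CPM in tumors (3.94 ± 0.70, adjusted p = 0.001). Tumors 2 and 4 stood far above the other three, and without them the difference was 2.44. Low-UMI barcodes held 14462 CPM of Apoe in tumor 4 and 6188 CPM in tumor 3, the latter above the members of that tumor. Lyz2, a lysozyme of macrophages and monocytes, was at 50.3-169 CPM in controls and 795, 6661, 939, 3921 and 1002 CPM in tumors (5.32 ± 0.82), with reads that its near copy Lyz1 can share. Spp1, osteopontin, was at 27.3, 1559, 28.4, 1322 and 110 CPM in tumors and 14.1-32.7 CPM in controls, so tumors 1 and 3 lay within the control range. Its rise of 5.15 ± 1.30 (adjusted p = 0.0073) was 1.57 without tumors 2 and 4. Low-UMI barcodes held 45, 1032, 92.3, 794 and 40.3 CPM of Spp1 in tumors and 29.3-65.1 CPM in controls, above the members of tumors 1 and 3 and of every control. Cst7, an inhibitor of cysteine proteases, was at 15.6, 293, 59.7, 158 and 108 CPM in tumors and 0, 0, 1.87 and 2.81 CPM in controls.

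MHC class I genes rose in 16 of 18, with a median of 1.97 and no gene lower. H2-D1, a classical class I heavy chain, was at 239, 303, 127 and 103 CPM in controls and 1254, 1024, 912, 1738 and 923 CPM in tumors (3.04 ± 0.36, adjusted p = 9.2e-05). The immunoproteasome subunits Psmb8 (2.41 ± 0.26) and Psmb9 (2.12 ± 0.25) and the light chain B2m (1.99 ± 0.25) were also higher in all tumors than in any control. H2-Q4 rose by 2.66 ± 0.30, but class I heavy chains are near-identical and reads can be split among H2-Q4, H2-Q6, H2-Q7, H2-K1 and H2-D1. All 3 class I genes of the microglial scale, H2-D1, H2-M3 and Psmb8, were higher there, and with free RNA subtracted 11 of 17 were higher. MHC class II genes rose in 4 of 8 (22.9% of all genes), and in 3 of 7 with free RNA subtracted (1651 of 4986 of all genes). The 4 were H2-DMa, H2-DMb1 (1.77 ± 0.20), H2-Oa (1.51 ± 0.51) and Ifi30, a lysosomal thiol reductase, at 41.5-65.6 CPM in controls and 267-639 CPM in tumors (3.26 ± 0.34). The call of H2-Oa was among those lost most often under other settings. The chains that form the class II molecule did not pass in this fit. Cd74, the invariant chain, was at 70.4, 81.8, 82.5 and 9.85 CPM in controls and 48.8, 48, 38.8, 368 and 75.8 CPM in tumors (1.42 ± 0.75, adjusted p = 0.14), high only in tumor 4. Among members with 3 or more microglial genes it did pass (2.32 ± 0.84, adjusted p = 0.04), as it did with the rule applied at 1000 UMIs (2.43, adjusted p = 0.035). H2-Aa (adjusted p = 0.34) and H2-Ab1 (adjusted p = 0.34) likewise had their highest value in tumor 4, at 65.1 and 90.4 CPM.

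Interferon-stimulated genes rose in 18 of 22, with a median of 1.85. Bst2, the viral tethering protein tetherin, was at 60.4, 54.1, 73.1 and 38 CPM in controls and 305, 788, 308, 1152 and 208 CPM in tumors (3.78 ± 0.56). Ifi27l2a was at 11.3-59.1 CPM in controls and 226-614 CPM in tumors (3.58 ± 0.48), Rtp4 rose by 2.71 ± 0.41, and Lgals3bp by 2.16 ± 0.25. Isg15, the ubiquitin-like interferon product, was at 5.63-17.6 CPM in controls and 41, 73.9, 34.3, 167 and 15 CPM in tumors (3.23 ± 0.72), with low-UMI barcodes of tumors at 19.6 to 201 CPM. Only 7 of the 22 genes were more than 2 times their low-UMI level in every tumor. With free RNA subtracted 8 of 16 were higher and 1 lower, with a median of 1.19. On the microglial scale 2 could be tested, and Ifi204 was higher. Interferon-stimulated genes carry an element bound by STAT and IRF factors, with the core GAAANNGAA. On either strand of the window from 250 bases before to 50 after the start (RefSeq, GRCm38.p6) this core stood in 12 of 21 matched interferon genes (57.1%), in 4 of 17 MHC class I genes (23.5%), in 0 of 23 homeostatic genes and in 8.57% of 27025 genes. The PU.1 core GAGGAAGT stood in 1 of 23 homeostatic genes (4.35%) and 3.28% of all genes. The 250 bases before the start of 3 genes that rose are shown because they hold the interferon core, which is in capitals, with Bst2 on the minus strand at chr8:71537473-71537722, Isg15 on the minus strand at chr4:156200819-156201068 and B2m on the plus strand at chr2:122147437-122147686.
Bst2: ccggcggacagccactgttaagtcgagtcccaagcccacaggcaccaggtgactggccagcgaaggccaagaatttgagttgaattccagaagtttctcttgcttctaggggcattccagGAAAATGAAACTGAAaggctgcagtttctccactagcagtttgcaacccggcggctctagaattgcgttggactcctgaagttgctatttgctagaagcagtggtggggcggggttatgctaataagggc
Isg15: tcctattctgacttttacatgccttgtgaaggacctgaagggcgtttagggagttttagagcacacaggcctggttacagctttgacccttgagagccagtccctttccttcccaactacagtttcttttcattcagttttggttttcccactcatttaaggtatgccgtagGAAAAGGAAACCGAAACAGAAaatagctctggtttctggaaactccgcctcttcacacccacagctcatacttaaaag
B2m: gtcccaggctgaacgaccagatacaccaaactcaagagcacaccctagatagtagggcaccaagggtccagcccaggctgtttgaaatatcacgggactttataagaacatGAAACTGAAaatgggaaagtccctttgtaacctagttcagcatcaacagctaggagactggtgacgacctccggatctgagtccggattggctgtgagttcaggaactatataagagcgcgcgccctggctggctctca
The cores overlap in Bst2 (2 sites) and Isg15 (3 sites), and B2m has 1 site 139 bases before its start. A match describes these letters and is no evidence of binding.

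**Figure D4:**
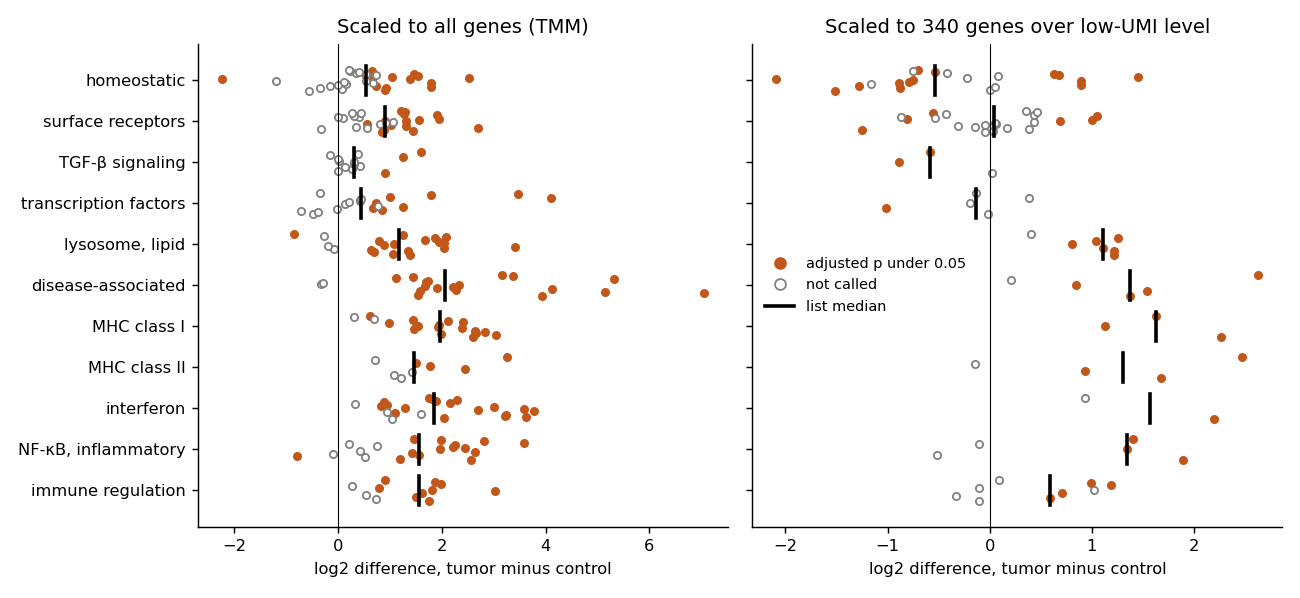
Difference between tumor and control members (log2) for the tested genes of 11 lists, on the whole-transcriptome scale and on the microglial scale of 340 genes, with filled points for adjusted p below 0.05 and black bars at list medians. The homeostatic median moves from 0.55 to -0.54, while disease-associated (1.37), MHC class I (1.63) and lysosomal (1.11) medians stay above 0 on the microglial scale.

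Of 5 testable complement genes 3 rose (22.9% of all genes did). C5ar1, the C5a receptor, was at 7.55, 6.29, 5.62 and 5.63 CPM in controls and 76.2, 75, 88.9, 15.8 and 27.3 CPM in tumors (3.59 ± 0.61) and stayed higher on the microglial scale at 2.66 ± 0.50. Its call was lost with limma voom in place of edgeR. C3ar1 rose by 1.14 ± 0.19, which became 0.29 on the microglial scale (adjusted p = 0.26), and C4b by 2.29 ± 0.56, the latter below its low-UMI level in the members of all 5 tumors. C5ar2 differed by 0.35 ± 0.59 (adjusted p = 0.67). Among 4 complement genes 1 was higher and 1 lower with free RNA subtracted. Inflammatory genes that the rule had not used rose in 13 of 19, and Nfkb2 fell. Of the 19, 7 were more than 2 times their low-UMI level in every tumor, and with free RNA subtracted 6 of 13 were higher and 2 lower. Bcl2a1b, a survival factor with near-identical copies, was at 35.2-68.9 CPM in controls and 149-273 CPM in tumors (2.25 ± 0.24). Nfkbia, the NF-κB inhibitor, was at 27.7-52.1 CPM in controls and 162, 229, 65, 172 and 196 CPM in tumors (2.57 ± 0.36). Cd83 rose by 2.45 ± 0.35 and the chemokine Cxcl16 by 2.64 ± 0.50. Of 5 on the microglial scale 3 were higher, Bcl2a1b, Cd14 and Cxcl16.

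Immediate early and heat shock genes rose in 11 of 20, and Egr3 fell. Without tumors 2 and 4 only 5 of 16 were higher and 2 lower, and the median was 0.62 in place of 1.15. Fos was at 30.2-36.6 CPM in controls and 135, 232, 112, 390 and 30 CPM in tumors (2.87 ± 0.61), with tumor 5 at the control level. Ier2 (3.25 ± 0.68) and Atf3 (3.38 ± 0.75) were highest in tumor 4. Egr3, at 23.9-59.1 CPM in controls and 0.88-5.86 CPM in tumors (-3.19 ± 0.42), was at the level of low-UMI barcodes in the controls. None of the 20 could be tested on the microglial scale, and 2 of 20 exceeded their low-UMI level more than 2 times in every tumor. With free RNA subtracted 4 of 13 were higher, beside 1651 of 4986 of all genes.

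Genes of immune regulation rose in 9 of 12 and none fell. Tspo, the mitochondrial protein used as an imaging target for neuroinflammation, was at 50.3, 37.7, 18.7 and 26.7 CPM in controls and 133, 284, 118, 281 and 153 CPM in tumors (3.03 ± 0.40). Lgals9, galectin 9, rose by 1.75 ± 0.26, the scavenger receptor Stab1 by 1.87 ± 0.32, and the T cell costimulator Cd86 by 1.50 ± 0.26. Of 10 on the microglial scale 4 were higher, Stab1, Cd86, Il10rb and Il4ra, while Cd84, Tnfrsf1b and Pilra no longer passed (adjusted p = 0.80, 0.77 and 0.061), and with free RNA subtracted 2 of 14 were higher and 1 lower. Glycolysis and hypoxia genes had 6 higher and 3 lower of 20, where 22.9% of all genes were higher and 20.9% lower. With free RNA subtracted 8 of the 12 that could be tested were higher and none lower, with a median of 7.85. Control members held less of this list (2991-3167 CPM) than their low-UMI barcodes (4198-4369 CPM). Subtraction therefore left little of it in controls, and this count does not measure a rise. Ddit4, a stress-induced mTOR inhibitor, was at 4.22-18.9 CPM in controls and 76.8-105 CPM in tumors (3.34 ± 0.32), and Ldha rose by 1.40 ± 0.28. Pfkp (-1.51 ± 0.32) and Aldoa (-0.75 ± 0.17) were lower, and control members held less Aldoa than their low-UMI barcodes. Cell cycle genes rose in 10 of 11, but none of the 11 exceeded 2 times its low-UMI level in every tumor. After subtraction of free RNA 4 of 7 were higher, and without tumors 2 and 4 the count was 3 of 5 and the median 0.71 in place of 2.56. Control members held less of this list too (945-1112 CPM) than their low-UMI barcodes (1469-1560 CPM), so the subtracted count has the same limit. Hmgb2 was at 143, 345, 59.7, 264 and 491 CPM in tumor members and 58.6, 212, 95.3, 172 and 661 CPM in their low-UMI barcodes. Cenpf (4.94 ± 0.92), Mcm6 (2.35 ± 0.47) and Ccnb1 (2.84 ± 0.58) also lay near the low-UMI level.

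**Figure D5:**
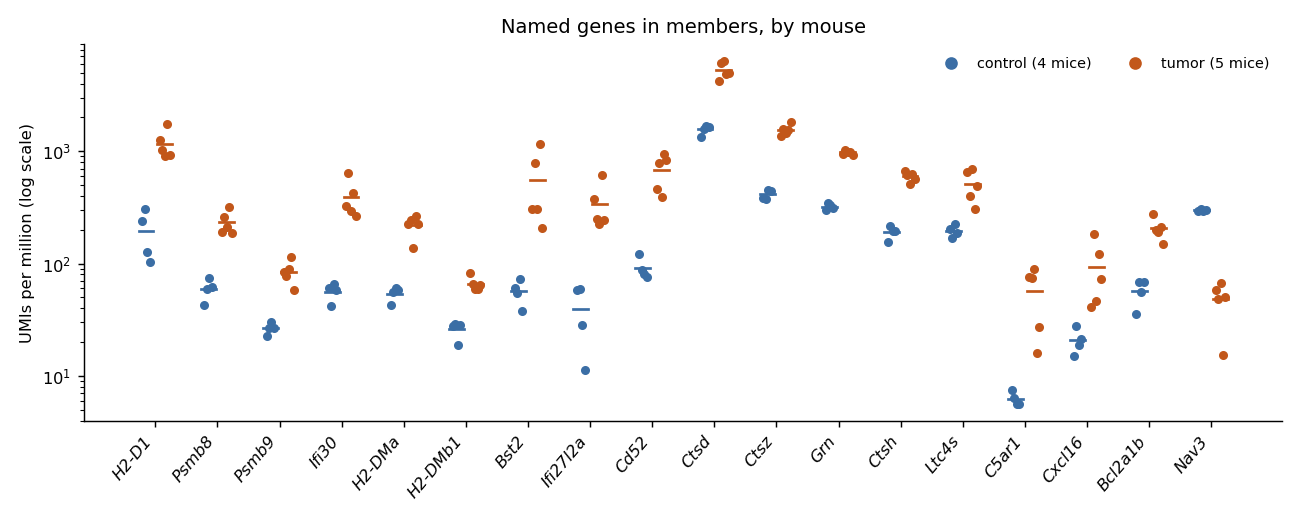
Levels of named genes in the members of each mouse, in CPM on a log axis, with controls in blue, tumors in orange and horizontal lines at group means. Ctsz (377-455 and 1373-1834 CPM) and H2-D1 (103-303 and 912-1738 CPM) separate the groups, and Nav3 (294-303 and 15.4-67.2 CPM) separates them in the other direction.

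The share of members with at least 2 UMIs of a gene list was compared after every cell had been thinned to 1000 UMIs, which left out the 6, 1 and 216 shallower members of tumors 1, 2 and 3. MHC class II transcripts were in 2.06%, 4.02%, 3.16% and 3.39% of control members and 17.0%, 24.1%, 13.1%, 34.4% and 15.3% of tumor members. The means differed by 17.6 percentage points (two-sided exact permutation p = 0.0159, adjusted over 4 lists 0.0317), the smallest p that 5 against 4 mice allow. Barcodes carrying neuronal but no macrophage markers had 0.06-0.60%. Interferon transcripts were in 11.9%, 10.6%, 10.8% and 3.39% of control members and 47.0%, 49.8%, 29.0%, 76.2% and 29.3% of tumor members, a difference of 37.1 points (exact permutation p = 0.0159, adjusted 0.0317). Every tumor lay above every control in both. Neuron-marked barcodes reached 7.91-35.6% for interferon transcripts in tumors and 1.05-2.19% in controls. Disease-associated transcripts were in 98.9-100% of members of every mouse and in 97.2-100% of neuron-marked barcodes, so this measure was saturated (exact permutation, adjusted p = 0.148). Cell cycle transcripts were in 22.2-29.4% of control and 12%, 33.9%, 17.5%, 24.4% and 53.5% of tumor members, at or below the neuron-marked barcodes of the same tumors (exact permutation, adjusted p = 0.841). Thinning evened total UMIs but not the free RNA among them (estimated at 86.1-97.5% in controls and 23.1-42.9% in tumors), whose part in these shares was not tested. Among class II genes, Ifi30, H2-DMa and H2-DMb1 were higher on the microglial scale, by 2.47, 1.68 and 0.94, whereas none of the chains H2-Aa, H2-Ab1 and Cd74 could be tested there. Before thinning, MHC class II shares were 10.3-19.8% in controls and 28.3-77.3% in tumors.

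Within tumors, members were set beside the inflammatory microglia of the same mouse, with no test since the rule separated them. Of 26 inflammatory genes outside the rule, 21 were lower in members in all 5 tumors, with a median of -1.49 on the log2(CPM + 1) scale. No share over all genes was computed for the counts of this comparison. The macrophage genes of the rule had medians from -0.44 (Tyrobp) to -0.16 (Csf1r), so a lean to lower values was not particular to the lists. Cd83 was at 56.6, 152, 100, 113 and 84.6 CPM in members and 159, 260, 780, 360 and 279 CPM in inflammatory microglia. Immediate early genes had a median of -1.46 and 9 of 20 were lower in all tumors. Homeostatic genes had a median of -0.15, and 8 of 30 were lower and none higher in members of all tumors. Cx3cr1 was at 1781, 593, 1576, 401 and 975 CPM in members against 1834, 701, 2240, 458 and 1079 CPM. Disease-associated genes had a median of -0.45 and 13 of 25 were lower in members of all tumors. Cst7 was lower in members of all 5 tumors and Ddit4 higher. Against macrophage-marked barcodes with none of the 5 microglial genes, 27 of 30 homeostatic genes were higher in members in every tumor (median 2.53), and so were 27 of 28 sensome genes (median 2.08). The macrophage genes of the rule were higher as well in every tumor, with medians from 1.28 (Fcer1g) to 2.76 (Csf1r). Those macrophage-marked barcodes also held more endothelial marker transcripts, 704-2443 CPM against 123-244 CPM in tumor members. The contrast is thus not particular to these lists.

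Members also differed among themselves by the number of microglial genes detected, which grows with depth, and these values are given as a description. In tumors, Cx3cr1 was at 749, 390, 640, 234 and 430 CPM in members with 2 of the 5 genes and at 2150, 954, 2227, 778 and 1424 CPM in those with 4 or 5. Controls 2 to 4 showed the same, at 363, 629 and 175 CPM with 2 genes and 2455, 2918 and 2622 CPM with 4 or 5, while control 1 stood at 1981 and 2120 CPM. Fewer microglial genes thus went with less Cx3cr1 in mice of both groups. Ms4a7, a gene of border-associated macrophages, went the other way, at 182, 391, 22.3, 240 and 2.47 CPM with 2 genes and 0, 161, 1.4, 73.6 and 0 CPM with 4 or 5. Apoe was at 22078, 45670, 6943, 55541 and 11840 CPM with 2 genes and 2964, 30567, 4535, 45240 and 15052 CPM with 4 or 5, higher with 2 genes in tumors 1 to 4. H2-D1 was higher with 4 or 5 genes in all 5 tumors, at 1260, 1220, 1019, 2757 and 1311 CPM against 921, 892, 712, 1249 and 513 CPM, and the lowest of these lay above the highest control subset of 423 CPM. Cst7 was at 20.2, 164, 80.7, 81.2 and 34.6 CPM with 2 genes and 14.5, 534, 37.7, 376 and 190 CPM with 4 or 5, higher with more genes in tumors 2, 4 and 5 and lower in tumors 1 and 3. With only members of 3 or more microglial genes in the fit, Ctsz rose by 2.45, H2-D1 by 3.23, Cd52 by 3.56 and Apoe by 4.13, and Cx3cr1 differed by -0.46 (adjusted p = 0.23).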

How the data were processed

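Droplet 5′ single-cell RNA-seq matrices were deposited by the authors as raw UMI counts per gene and barcode, aligned with Cell Ranger to mm10 (version 7 in the submitters' processing notes, 6.1.2 in the matrix headers). Each matrix held 32285 genes and 4 added sequences, of which 1 was among the genes tested. The feature list of control 4 names the same genes in the same order but only 2 of the added sequences, so no value of them is given for it. Of the top 10000 barcodes of a library by UMIs (9001 deposited in tumor 3), those with 200-6000 genes and under 15% mitochondrial UMIs were retained. In control 4 the barcode list was shorter than the matrix, so barcodes were compared over 8 libraries. Groups came from the genotype labels. That the mice are separate animals follows from the labels' n, and p-values measure the spread between these mice. The 3000 barcodes of lowest UMI number in each matrix, less those with 3 or more of the 7 macrophage genes, gave the low-UMI level (medians of 556 to 1338 UMIs, so they can hold small cells besides free RNA). UMIs of members were summed per mouse and tested with edgeR 4.0.16 (quasi-likelihood, TMM, filterByExpr, Benjamini-Hochberg, threshold 0.05). Shares were tested by exact permutation. DESeq2 1.42.0 and limma voom 3.58.1 were alternatives, with the settings listed in the last section. On simulated data with 200 genes changed by 2 (log2) and 8769 genes tested, edgeR recovered 81% with 6.36% false calls. The simulation changed few genes, equally up and down, and held no difference in free RNA between groups, so these rates need not hold for the calls reported here. Doublets were kept in the main fit and removed in an alternative, using scanpy 1.11.5. The text names the 8 higher and 8 lower genes of smallest p that kept their direction with each mouse left out and were at least 2 times the low-UMI level in the group where they are higher, the 4 genes of smallest p in each of 16 lists, and the rule and marker genes. Some marker and list genes are not reported by name here. Others are said to be named after their values were seen. Members, lists and tests were chosen with earlier results of these data known. Promoter windows came from RefSeq GRCm38.p6, with the first window per gene.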

Additional observations from a re-analysis of the deposited data

Results flagged for a closer look

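In 204 groups of 4 or 5 mice examined, 17 had a value set apart from the rest by Dixon's criterion, which chance gives in about 1 in 20 groups. Among controls, control 1 was highest for Cd300c2 (159 CPM), Cd83 (40.3 CPM) and Lgals9 (67.9 CPM), and control 2 was highest for Csf2ra (37.7 CPM) and lowest for P2ry13 (209 CPM). Control 3 was highest for Apoe (3708 CPM) and Ms4a7 (16.9 CPM) and lowest for H2-DMb1 (18.7 CPM), and its members had the most border-associated macrophage transcripts of the controls. Control 4 was lowest for H2-Q4 (5.63 CPM), for Cd74 (9.85 CPM) and for the share of members with interferon transcripts (3.39%). Among tumors, tumor 4 was highest for Cd74 (368 CPM) and H2-Aa (65.1 CPM), tumor 3 for Olfml3 (979 CPM) and Tgfb1 (235 CPM), tumor 2 for Cyba (1249 CPM) and tumor 1 for Pfkp (66.4 CPM).

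Transcripts of the luciferase gene carried by the tumor allele were found in members, at 5.86, 26.5, 3.73, 156 and 30.8 CPM in tumors 1 to 5, and none in the members of controls 1 to 3. Control 4 gave no value, since its feature list names only 2 of the 4 added sequences. In tumor 1 this was 3 UMIs in 3 of 206 members. Each value lay below the low-UMI barcodes of the same tumor, which held 12.4, 80.6, 18.8, 221 and 61.1 CPM.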

How the results depend on the processing

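Results are tumor minus control differences (log2) unless stated. In 81 named genes and 13 others given in the report, calls and directions were unchanged with no filter on low counts. A limit of at least 50 members per mouse left out no mouse, so it was the reported fit itself and no check. DESeq2 (1901 higher, 1985 lower), limma voom (1740, 2179), thinning the rule to 1000 UMIs (1630, 1550), 0 of 6 inflammatory genes (1701, 1797), 3 or more of 5 microglial genes (1885, 1738), a mitochondrial limit of 10% (1852, 1740), doublet removal (1924, 1756) and leaving out tumors 2 and 4 (1777, 1880) kept the counts of called genes within 1.5 times the reported 2177 and 1988. Leaving out each mouse in turn gave 1783 to 2216 higher and 1761 to 2215 lower. Counts moved further when free RNA entered the model: 1651 higher and 856 lower with free RNA subtracted, 1251 and 696 with 3 or more of 5 microglial genes as well, and 81 and 63 of 340 genes on the microglial scale. With free RNA subtracted, 65 genes called in the reported fit were called in the opposite direction, and genes at or below the low-UMI level in any library were given no value here. The replicate numbers pair nothing (correlations 0.07, -0.08, -1.7e-04 and 0.04 between same-numbered mice), and a fit with the replicate block gave 1878 higher and 1823 lower, or 1287 and 506 with free RNA subtracted. Among the named and other genes, the call was lost with its direction kept for 14 with voom (Spp1, Cst7, Ms4a7, Mrc1, Isg15 and C5ar1 among them), 7 with 0 of 6, 15 with free RNA subtracted (Lgmn, Trem2, Spi1, Cebpa, C3ar1 and Fcrls among them), 16 with 3 or more genes as well, 21 with subtraction and block, 7 on the microglial scale, 3 at the 10% mitochondrial limit, 1 each with DESeq2, doublet removal, the block, the thinned rule and without tumors 2 and 4, and 0 to 5 with each mouse left out. Mrc1 and H2-Oa were lost most often. Calls were gained for Cx3cr1 and P2ry13 with free RNA subtracted, alone or with another change, and on the microglial scale, and for Cd74 with the thinned rule and with 3 or more genes. Signs turned as follows. Selplg was at -0.10 with voom, -0.0684 with the replicate block, -0.0218 at the 10% mitochondrial limit, -0.98 with free RNA subtracted, -0.87 with 3 or more genes as well, -0.88 on the microglial scale and -1.19 with subtraction and block, and ranged from -0.20 to 0.25 with each mouse left out. C5ar2 was at -0.34 with voom, -0.67 with subtraction, -0.59 with 3 or more genes as well, -0.58 on the microglial scale and -0.82 with subtraction and block, and ranged from -0.12 to 0.62 with each mouse left out. With subtraction, with 3 or more genes as well, and with subtraction and block, Tgfb1 was at -0.21, -0.0496 and -0.24 and Plcg2 at -0.18, -0.10 and -0.28 (-0.0146 on the microglial scale). Olfml3 was at -0.14 with subtraction and -0.22 with the block, and Cd74 at -0.22 with both. Without tumors 2 and 4, P2ry13 was at 0.15 and H2-Ab1 at -0.68. With each mouse left out, the difference in shares of members ranged from 14.2 to 19.6 points for MHC class II and 29.6 to 41.4 for interferon, where 4 against 4 or 3 against 5 mice cannot give an adjusted p below 0.0571 or 0.0714 unless another list also reaches its smallest p, from 0.269 to 0.646 for disease-associated genes (0.646, adjusted p = 0.0476, without control 1), and from -3.51 (without tumor 5) to 6.86 for cell cycle. The cell cycle difference was -12.5 at 2000 UMIs and -3.82 with at least 1 UMI. The tumor mean of members among kept barcodes, 6.46%, became 3.84% with the thinned rule, 4.14% with 0 of 6 and 3.6% with 3 or more of 5. Causes of these changes were not tested. The planned test of whether the tumor difference itself differed between members and inflammatory microglia was not run, because no control held the 20 inflammatory cells it required.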
